A study of Mus musculus with 2 samples.

Results

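Heterotrimeric G proteins relay signals from seven-helix receptors in the cell membrane. An alpha subunit binds guanine nucleotides and sets which pathway is engaged, while a beta and a gamma subunit form a stable dimer that acts on ion channels, enzymes and vesicle release. In brain they carry the actions of dopamine, GABA, opioids, glutamate and many other transmitters, and each subunit class is a family of paralogs with different tissue distributions.

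The members were all protein-coding mouse genes whose symbols mark them as alpha subunits (Gna genes, with the Gs alpha gene not taken), as beta subunits (Gnb1 to Gnb5) or as numbered gamma subunits (Gng genes). The rule goes by gene names and uses no measured value, although it was set with earlier results of these data known, and it gave 30 genes of 43346 in the tables: 15 alpha, 5 beta and 10 gamma genes. RNA longer than 200 nt was taken from forebrain of B6NCrl mice at postnatal day 0, and libraries were made from 13 pg, the amount assigned to 1 cell, although the material was tissue RNA and not a cell. There were 2 libraries, 1 from pup 1 (replicate 1) and 1 from pup 3 (replicate 2), with no treatment or mutation named and the sex not recorded. They form 1 group, so no comparison of conditions exists, each pup has 1 library, and no test or p-value is given for a difference between pups. The labels give both pups the same donor identifier, and the SD between them (n = 2) holds both biological and technical spread.

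The libraries held 41082811 estimated reads in pup 1 and 29881397 in pup 3, of which the 30 members took 0.754% in pup 1 and 0.466% in pup 3. Levels are given as TPM, a relative abundance of transcripts that is scaled by their length, so that paralogs can be set side by side. A gene is called found at TPM of 1 or more. The forebrain markers Neurod6 and Bcl11b were found in both pups and Emx1 in pup 1 alone, all 4 neuronal markers were found in both, and 0 of 3 hindbrain markers were found in either. A count of 0 reads allows up to 3 reads, which is a floor of 0.113 TPM in pup 1 and 0.129 TPM in pup 3 for a transcript with 1000 effective bases. No molecular identifiers are given for the reads, so reads are not independent molecules, and this floor and the intervals below hold counting error alone.

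Most beta and gamma genes were found in both pups, while many alpha genes were not. In all, 19 of 30 members (63.3%) were found in both pups, pup 1 alone added 5, pup 3 alone added 1, and 5 were found in neither. Over all 21474 protein-coding genes the share found in both was 24.8%, with 17.4% seen only in pup 1 and 4.21% seen only in pup 3. By class, 9 of 10 gamma, 4 of 5 beta and 6 of 15 alpha genes were found in both. The 5 members found in pup 1 alone and the 1 found in pup 3 alone were all alpha genes. The 5 members found in neither pup had 0 reads in both: Gnat2 (cone transducin), Gnat3 (gustducin of taste cells), Gna15 (a Gq-type alpha subunit of blood cells), Gnb3 (a beta subunit of photoreceptors) and Gng13 (a gamma subunit of olfactory, taste and retinal bipolar cells).

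**Figure D1:**
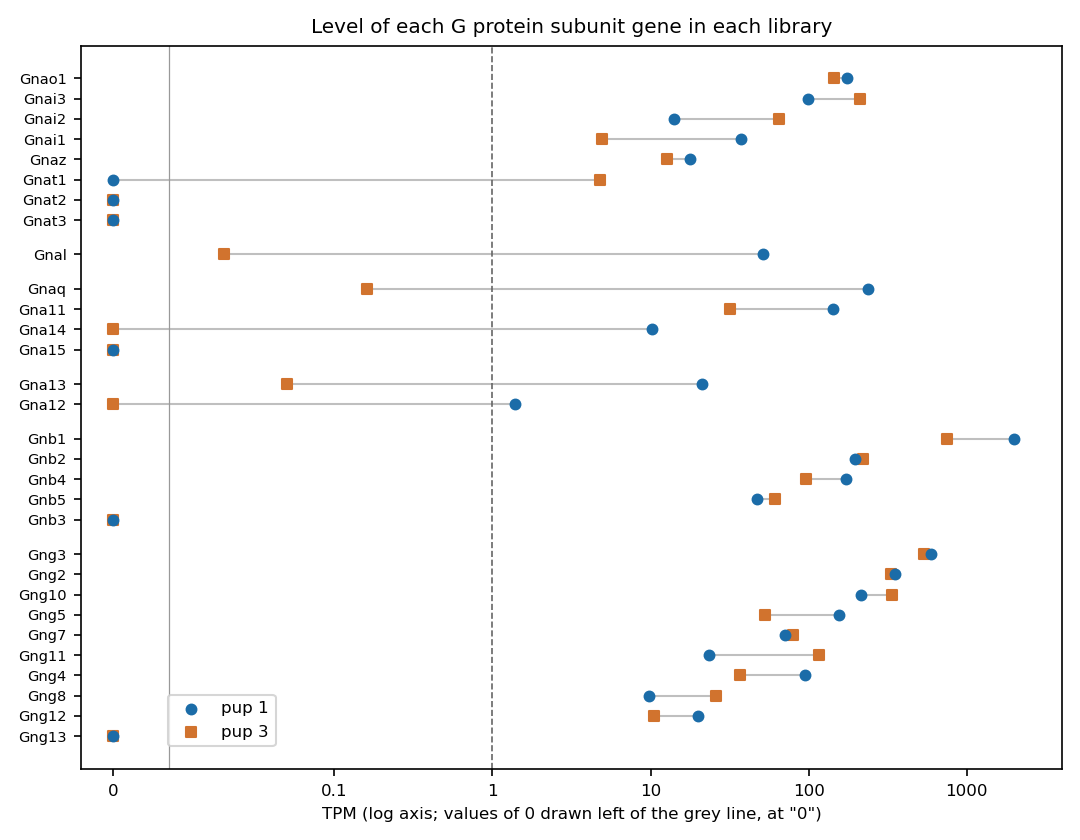
Level of each of the 30 members in TPM on a log axis, with pup 1 as circles and pup 3 as squares, 1 library each, and values of 0 drawn at the left. The dashed line marks 1 TPM. Over all transcripts, the beta and gamma genes with reads differ by at most 4.95-fold (Gng11). On coding transcripts alone, which are not drawn, Gng4 (83.7 and 7.90 TPM) and Gnb4 (4.89 and 33.5 TPM) differ by more than that. Gnaq (237.88 and 0.16 TPM) and Gnal (51.45 and 0.02 TPM) are far apart.

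Of the 6 alpha genes found in both pups, 5 belonged to the Gi/o family, the other being Gna11. These subunits lower cyclic AMP or, for Go, act largely through the released beta-gamma dimer. Gnao1 (ENSMUSG00000031748, mm10 chromosome 8, 93809966 to 93969388, plus strand), which encodes the abundant neuronal Go alpha subunit, had 175.57 TPM in pup 1 and 143.73 TPM in pup 3, a mean of 159.65 ± 22.5 TPM (SD, n = 2). Gnai3, a broadly expressed Gi alpha subunit, had 99.65 TPM in pup 1 and 211.88 TPM in pup 3 (155.8 ± 79.4 TPM). The 2 genes changed places, Gnao1 being higher than Gnai3 in pup 1 and lower in pup 3, so their order was not resolved.

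The other Gi/o genes were lower and split in direction. Gnai2, another broadly expressed Gi subunit, had 13.96 TPM in pup 1 and 64.97 TPM in pup 3, whereas Gnai1, a Gi subunit enriched in brain, had 37.52 TPM in pup 1 and 4.92 TPM in pup 3. Gnaz, the Gz alpha subunit of neurons, was close in both, with 17.86 TPM in pup 1 and 12.61 TPM in pup 3. Gnat1, which encodes rod transducin, had 0 reads in pup 1, against 47 reads in pup 3 (4.76 TPM). All 47 were assigned to a transcript annotated as non-coding (Gnat1-204), and none to a coding transcript. The photoreceptor markers Crx and Pde6b had 0 reads in both pups, and Sag was at 1.45 TPM in pup 1 against 0.58 TPM in pup 3.

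The last codons of the alpha genes carry a feature that separates these families in function. In most Gi/o subunits the fourth residue from the end is a cysteine, the site that pertussis toxin modifies to uncouple them from receptors. The ends of the coding sequences are shown to let the seen paralogs be compared at this site, as the last 30 bases including the stop codon, 5′ to 3′ on the coding strand, from GENCODE M21 transcripts (mm10), with the codon of that residue in capitals.
Gnao1-201: aacaatctccggggcTGCggcttgtactga
Gnao1-207: aaaaacctacggggcTGTggactctactga
Gnai3-201: aacaacttaaaggaaTGTgggctttattga
Gnai2-201: aacaacctgaaggacTGTggcctcttctga
Gnai1-201: aataacctaaaagacTGTggtctcttctaa
Gnaz-202: aacaatctcaagtacATCggcctttgctga
Gnaq-201: ctgaacctgaaggagTACaatctggtctaa
Gna11-201: ctgaacctgaaggagTACaacctggtgtga

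The capitals read as a cysteine codon in Gnao1, Gnai1, Gnai2 and Gnai3, as an isoleucine codon in Gnaz and as a tyrosine codon in Gnaq and Gna11. Of the 14 alpha genes whose coding end was read, 7 had a cysteine codon there, all of them in the Gi/o family; for Gna13 the end read was that of a short transcript of 173 codons. Gnao1-201 and Gnao1-203 share 1 coding sequence of 354 codons and together held 97.5% of Gnao1 TPM in pup 1 and 89.7% in pup 3 (93.6 ± 5.57%, SD, n = 2). Gnao1-207, also of 354 codons, has another coding end and held 2.27% in pup 1 and 9.22% in pup 3. In reads its share was 1.69% in pup 1 (95% Clopper-Pearson interval 1.49 to 1.92%) and 6.83% in pup 3 (6.35 to 7.35%), so the intervals did not overlap, although they hold counting error alone. Between the 2 transcripts with the same coding sequence, Gnao1-201 led in pup 1 (115.79 TPM, against 55.46 TPM for Gnao1-203) and Gnao1-203 led in pup 3 (68.45 TPM, against 60.44 TPM for Gnao1-201). On TPM, Gnao1-201 held 54.0% of the gene on average, 66.0% in pup 1 and 42.1% in pup 3.

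Apart from Gna11, the alpha genes of the other families were all under 1 TPM in pup 3. Gnaq (ENSMUSG00000024639, mm10 chromosome 19, 16132831 to 16387463, plus strand), which encodes the Gq alpha subunit that activates phospholipase C beta, was the highest alpha gene in pup 1 at 237.88 TPM (35005 reads), against 0.16 TPM (21 reads) in pup 3. The deposited upper credibility bound in pup 3 was 0.592 TPM. Gna11, its close paralog with the same action, had 142.56 TPM in pup 1 and 31.9 TPM in pup 3, and so was the main Gq/11 gene in pup 3. In bulk RNA of this kind, fewer cells of a type and less RNA per cell cannot be told apart. With 1 library per pup, neither can be told apart from a difference between preparations from 13 pg. Of the 10 members at mean TPM of 100 or more, Gnaq alone was under 1 TPM in pup 3, and 0.849% of the 1531 protein-coding genes at that level were. Gnaq reached that mean through pup 1 alone, so these counts describe the data and do not measure how unusual Gnaq is.

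Gnal, which encodes the Golf alpha subunit that raises cyclic AMP in striatal and olfactory neurons, had 51.45 TPM (6997 reads) in pup 1 and 0.02 TPM (2 reads) in pup 3. With the level in pup 3 computed from its 2 reads and not from the rounded TPM, the ratio of pup 1 to pup 3 was 3055. Its exact counting interval was 845 to 25230. Of 5 markers of striatal neurons, 2 were found in both pups (Penk and Tac1), Ppp1r1b in pup 3 alone, and Drd1 and Drd2 in neither, with a summed level of 306 TPM in pup 1 and 322 TPM in pup 3. These markers split in direction. Penk, like Gnal, was higher in pup 1 (197.63 TPM, against 114.64 TPM in pup 3). Tac1 was higher in pup 3 (134.72 TPM, against 108.62 TPM in pup 1). Ppp1r1b went most clearly against Gnal, at 72.7 TPM in pup 3 with 0.10 TPM in pup 1. Whether striatal content differed between the pups was not tested. Of 3 markers of olfactory sensory neurons, all had 0 reads in both pups.

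The remaining alpha genes were low in pup 1 and had 1 read or none in pup 3. Gna13, a G12/13 subunit known to act on the cytoskeleton, had 21.28 TPM in pup 1, against 0.05 TPM (1 read) in pup 3. With the level in pup 3 again computed from its read, the ratio was 402, with a counting interval of 72.0 to 15890. Of the value in pup 1, 15.99 TPM came from 346 reads on Gna13-202, a transcript of 914 bases that also held the read in pup 3. Most reads of Gna13 in pup 1 (71.1%) were on Gna13-201, at 5.29 TPM. The ratio and its interval thus depend on how reads are split among transcripts. Gna14, a Gq-type subunit, had 10.24 TPM in pup 1, against 0 reads in pup 3, at least 260-fold higher in pup 1 against a floor of 3 reads. Gna12, the other G12/13 subunit, had 1.39 TPM (122 reads) in pup 1 and 0 reads in pup 3, at least 35.6-fold higher in pup 1. Its exons share 13.4% of their bases with Amz1 on the opposite strand, which was at 41.7 TPM in pup 1 against 0 TPM in pup 3; the strand setting of the counting is not given in the sources used here, so reads of the 2 genes may not be separate.

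Summed by family, the makeup of the alpha class differed between the pups. Gi/o genes came to 344.56 TPM in pup 1 and 442.87 TPM in pup 3, or 42.6% of alpha TPM in pup 1 and 93.2% in pup 3. Gq/11 genes came to 390.68 TPM in pup 1 and 32.06 TPM in pup 3, or 48.3% in pup 1 and 6.75% in pup 3. The G12/13 genes held 2.80% in pup 1 and 0.0105% in pup 3, and Gnal 6.36% in pup 1 and 0.00421% in pup 3. All shares of the alpha class are over these 15 genes only and do not include the Gs alpha gene.

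**Figure D2:**
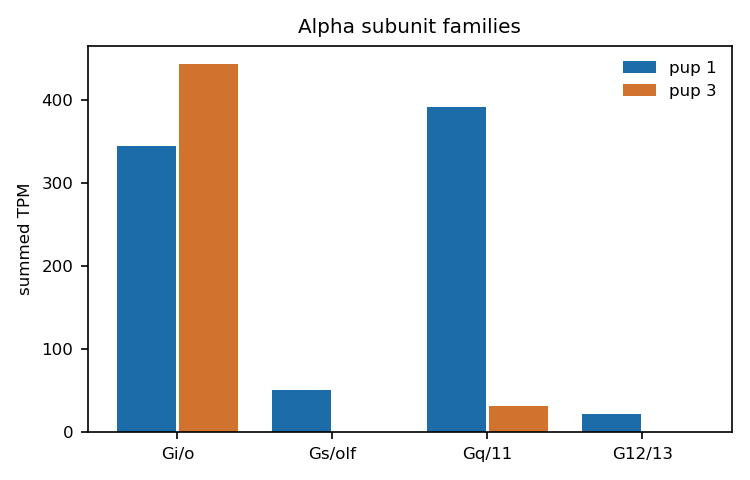
Summed TPM of the 4 alpha subunit families in pup 1 (left bar) and pup 3 (right bar), 1 library each, without the Gs alpha gene. Gi/o genes are at 344.56 and 442.87 TPM, while Gq/11 genes are at 390.68 TPM in pup 1 against 32.06 TPM in pup 3.

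Of the beta subunits, the propeller-shaped partners of gamma, Gnb1 was by far the most abundant. Gnb1 (ENSMUSG00000029064, mm10 chromosome 4, 155491361 to 155559269, plus strand) had 1976.35 TPM in pup 1 and 744.51 TPM in pup 3, or 82.7% of beta TPM in pup 1 and 66.4% in pup 3 (74.5 ± 11.5%). On protein-coding transcripts alone its mean share of the beta class was 85.65%. Gnb1 was the highest of the 30 members in both pups. Its transcript Gnb1-208 made up 98.4% of the gene in pup 1, against 97.5% in pup 3. In reads its share of the beta class was 91.7% in pup 1 (95% interval 91.5 to 91.8%) and 82.1% in pup 3 (81.8 to 82.4%).

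The other beta genes kept 1 order in both pups. Gnb2, a broadly expressed beta subunit, had 195.09 TPM in pup 1 and 219.61 TPM in pup 3, Gnb4 172.22 TPM in pup 1 and 95.88 TPM in pup 3, and Gnb5 47.34 TPM in pup 1 and 61.06 TPM in pup 3. Neighbours in the order Gnb1, Gnb2, Gnb4, Gnb5 had ranges that did not overlap in TPM. In reads Gnb4 (7602 in pup 1, 5107 in pup 3) was above Gnb2 (4000 in pup 1, 3641 in pup 3), and on coding transcripts alone Gnb4 was below Gnb5 in both pups. Gnb5, the most divergent beta subunit, is known to pair with R7 RGS proteins in place of gamma subunits, and these were seen unevenly. Among its partners, Rgs9 was at 19.9 TPM in pup 1 against 47.2 TPM in pup 3, Rgs6 at 7.32 TPM in pup 1 against 62.1 TPM in pup 3, and Rgs7 at 0.06 TPM in pup 1 against 88.8 TPM in pup 3. The anchor gene Rgs7bp was at 3.24 TPM in pup 1 with 0 TPM in pup 3, and Rgs11 and Rgs9bp had 0 reads in both. Summed over these 6 genes the level was 30.5 TPM in pup 1 and 198 TPM in pup 3, while Gnb5 itself differed by 1.29-fold.

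Part of the beta signal lay in transcripts annotated as non-coding. For Gnb4, transcripts annotated as protein-coding made up 2.84% in pup 1, against 35.0% in pup 3, the rest being in transcripts annotated with a retained intron, led by Gnb4-204 at 96.03 TPM in pup 1 against 62.27 TPM in pup 3. On coding transcripts alone Gnb4 stood at 4.89 TPM in pup 1 against 33.5 TPM in pup 3, so its direction between pups turned. For Gnb2 the coding share was 56.9% in pup 1 and 47.1% in pup 3, whereas Gnb5 has 1 transcript listed, which is coding. How reads are split among overlapping transcripts is an estimate of the counting model.

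**Figure D3:**
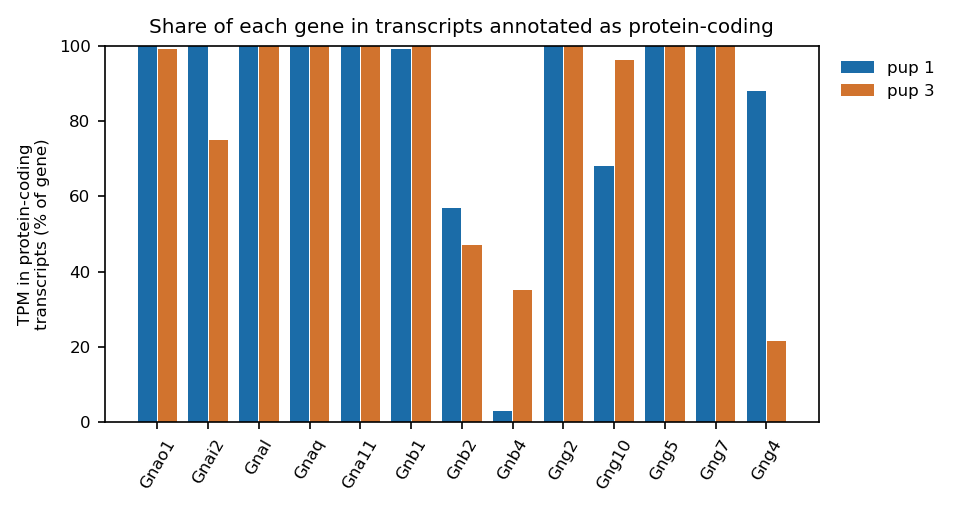
Percent of each gene's TPM in transcripts annotated as protein-coding, for the 13 members at mean TPM of 20 or more with more than 1 transcript listed, in pup 1 (left bar) and pup 3 (right bar). Most bars are near 100%; Gnb4 (2.84% and 35.0%), Gnb2 (56.9% and 47.1%), Gng4 in pup 3 (21.6%), Gng10 in pup 1 (68.0%) and Gnai2 in pup 3 (74.8%) stand lower.

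Gamma subunits were the class nearest in total between the pups, at 1532.28 TPM in pup 1 against 1521.42 TPM in pup 3. Gng3 (ENSMUSG00000071658, mm10 chromosome 19, 8836933 to 8839194, minus strand), a gamma subunit of neurons, led in both pups with 594.33 TPM in pup 1 and 534.97 TPM in pup 3, or 38.8% of gamma TPM in pup 1 and 35.2% in pup 3 (37.0 ± 2.56%). In reads its share was 36.0% in pup 1 (95% interval 35.6 to 36.3%) and 39.8% in pup 3 (39.4 to 40.2%). Gng2, which pairs widely with Gnb1 in brain, had 348.91 TPM in pup 1 against 330.3 TPM in pup 3 (339.6 ± 13.2 TPM). The ratio of Gng3 to Gng2 was 1.70 in pup 1 and 1.62 in pup 3. Of Gng3's exon bases, 24.2% are shared with Bscl2 on the opposite strand, which was at 44.0 TPM in pup 1 against 64.9 TPM in pup 3.

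Gamma subunits are anchored in the membrane by a lipid on a cysteine near the end of the protein, followed by 3 residues that are cut off. A last residue of leucine is known to call for geranylgeranyl and one of serine for farnesyl. The coding ends of the gamma genes are shown, since this is the site that sets them apart in membrane attachment. They are the last 30 bases of the coding sequence from GENCODE M21 (mm10), 5′ to 3′ on the coding strand, with this cysteine codon, the 3 codons after it and the stop codon in capitals.
Gng3-201: gagaagaagttcttcTGTGCGCTCCTCTGA
Gng2-204: gagaagaagttcttcTGCGCCATCCTTTAA
Gng4-201: gagaagaagttcttcTGCACCATCCTCTAA
Gng10-201: cgggagcccaggtccTGTGCTCTACTTTGA
Gng5-201: agaccccagaaagtcTGCTCCTTTTTGTAG
Gng7-201: aaagacaaaaagcctTGCATAATTCTCTAG
Gng12-201: aaggataagaagaccTGCATCATCTTATAG
Gng8-201: gacaagcgactctttTGCACCCTGCTCTGA
Gng11-201: aaagaaaagggcagcTGTGTCATTTCATAA

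All 10 gamma genes, Gng13 included, had the cysteine codon. The last codon before the stop read leucine in 9 and serine in 1, Gng11. The 9 genes ending in leucine held 98.5% of gamma TPM in pup 1 and 92.4% in pup 3, and Gng11 held 1.52% in pup 1 and 7.59% in pup 3. Gng2, Gng3 and Gng4 share the 15 bases before the cysteine codon as printed.

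Gng10 and Gng5 followed in the order of mean level. Gng10, a broadly expressed gamma subunit, had 214.24 TPM in pup 1 and 335.45 TPM in pup 3, and its range overlapped that of Gng2. On coding transcripts alone Gng10 stood at 145.71 TPM in pup 1 against 322.6 TPM in pup 3, more than 2-fold apart and below Gng2 in both pups. The gene model Gm20503 covers 72.0% of the exon bases of Gng10 on the same strand and was at 0 TPM in pup 1 against 0.17 TPM in pup 3. Gng5, a small gamma subunit known from neural progenitors, had 156.01 TPM in pup 1 and 52.79 TPM in pup 3. Of 5 markers of radial glia and progenitors, 3 were found in both pups (Fabp7, Vim and Pax6), Hes5 in pup 1 alone and Mki67 in neither, and the summed level of the 5 was 1724 TPM in pup 1 against 2476 TPM in pup 3, most of it Fabp7 (1337 TPM in pup 1 against 2290 TPM in pup 3). Like Gng5, Vim was higher in pup 1, at 379 TPM in pup 1 against 173 TPM in pup 3, as was Hes5 (2.09 TPM in pup 1 with 0 TPM in pup 3). Fabp7 and Pax6 were higher in pup 3, Pax6 being at 5.74 TPM in pup 1 against 13.9 TPM in pup 3. The part of these cells in the difference of Gng5 was not tested.

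Gng7 and Gng4, gamma subunits known from striatum and other neurons, behaved differently. Gng7, which is known to pair with Gnal in striatal neurons, had 70.44 TPM in pup 1 and 79.47 TPM in pup 3, so it was level where Gnal was not. Gng4 had 95.31 TPM in pup 1 and 36.51 TPM in pup 3. Of the value in pup 3, 28.6 TPM came from 71 reads on Gng4-202, a non-coding transcript of 206 bases, and on coding transcripts alone Gng4 had 83.7 TPM in pup 1 against 7.90 TPM in pup 3.

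The remaining gamma genes were lower and moved both ways. Gng11, a gamma subunit known from endothelium and platelets, had 23.3 TPM in pup 1 and 115.42 TPM in pup 3. Of 6 endothelial and mural markers, Cldn5 and Rgs5 were found in both pups, Cdh5 and Pdgfrb in pup 1 alone, and Pecam1 and Flt1 in neither. Cldn5 was at 41.8 TPM in pup 1 against 82.2 TPM in pup 3, and Rgs5 at 4.15 TPM in pup 1 against 15.1 TPM in pup 3. Cdh5 and Pdgfrb were at 8.21 and 26.9 TPM in pup 1, both with 0 TPM in pup 3. The summed level of the 6 was 81.9 TPM in pup 1 against 97.3 TPM in pup 3. The platelet markers Pf4 and Itga2b were at 40.9 and 4.44 TPM in pup 1, both with 0 TPM in pup 3. The part of these cell types in the difference of Gng11 was not tested. Gng8, known from olfactory and vomeronasal neurons, had 9.78 TPM in pup 1 and 25.96 TPM in pup 3, and Gng12, known from glia and progenitors, had 19.96 TPM in pup 1 and 10.55 TPM in pup 3.

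**Figure D4:**
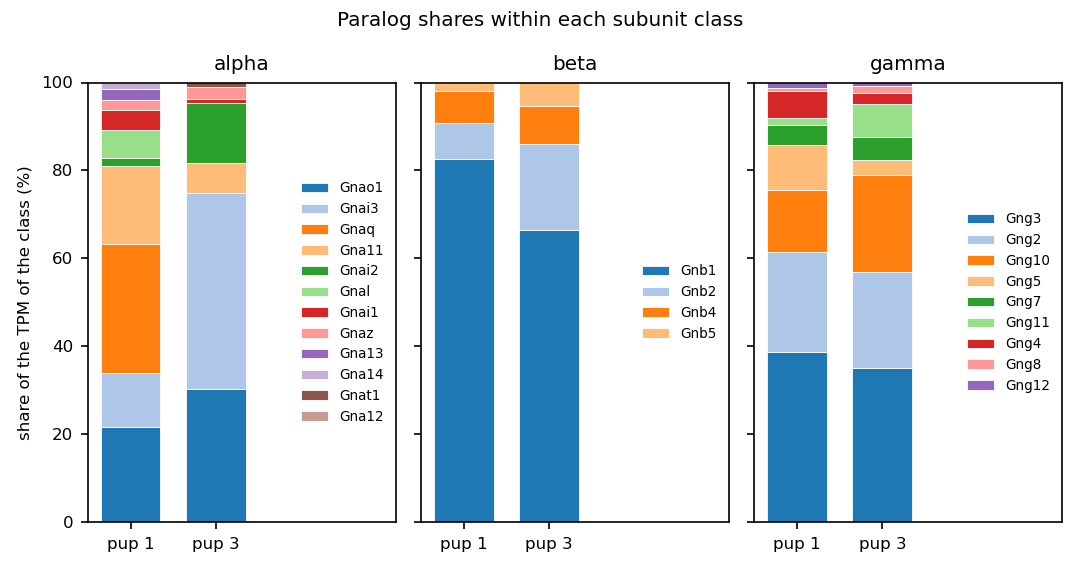
Share of each paralog in the TPM of its class, in percent, in pup 1 (left bar) and pup 3 (right bar), 1 library each, for members with any TPM. Gnb1 holds 82.7% and 66.4% of the beta class and Gng3 38.8% and 35.2% of the gamma class, while Gnaq holds 29.4% of the alpha class in pup 1 and 0.0337% in pup 3.

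The sums of the classes show how far the transcript levels of the 3 parts of the trimer were from equal. Alpha genes came to 809.36 TPM in pup 1 and 475 TPM in pup 3, and beta genes to 2391 TPM in pup 1 and 1121.06 TPM in pup 3. Beta exceeded alpha by 2.95 times in pup 1 and 2.36 times in pup 3 (2.66 ± 0.420), and gamma exceeded alpha by 1.89 times in pup 1 and 3.203 times in pup 3 (2.55 ± 0.926). On expected counts, which are not scaled by length, gamma was 0.832 times alpha in pup 1 and 1.56 times alpha in pup 3, so the direction in pup 1 turned. The Gs alpha gene is not in the alpha sum, so these ratios hold for the listed genes only.

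Between the pups, 14 of the 24 members at mean TPM of 1 or more differed by more than 2-fold on log2(TPM + 1), a scale that understates the change of low genes. Of these, 9 were higher in pup 1 (37.5% of members, against 48.2% of 9670 protein-coding genes) and 5 were higher in pup 3 (20.8%, against 23.1%). At mean TPM of 50 or more, 5 of 15 members were higher in pup 1 (33.3%, against 19.6% of protein-coding genes) and 2 were higher in pup 3 (13.3%, against 23.3%). The 5 were Gnb1, Gnaq, Gng5, Gna11 and Gng4, and the 2 were Gnai3 and Gng11. As a median, the log2 ratio (pup 1 over pup 3) was 0.38 for the 24 members, beside 0.82 for all protein-coding genes with a mean of at least 1 TPM, and 0.15 for the 15 members with a mean of at least 50 TPM, beside -0.12 for all such genes. By class at 1 TPM or more it was 2.13 for 11 alpha genes, 0.33 for 4 beta genes and 0.08 for 9 gamma genes. These class medians are not matched for level. Over all protein-coding genes the median was 2.03 at mean TPM of 1 to 3 and 3.32 at 3 to 10. It was 2.41 at 10 to 30 and -0.12 at 30 to 100. Gnal, Gnai1, Gnaz, Gna13, Gna14 and Gnat1 had means under 30 TPM, as did Gng8 and Gng12, so 2.13 is not read as a trait of the alpha class.

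**Figure D5:**
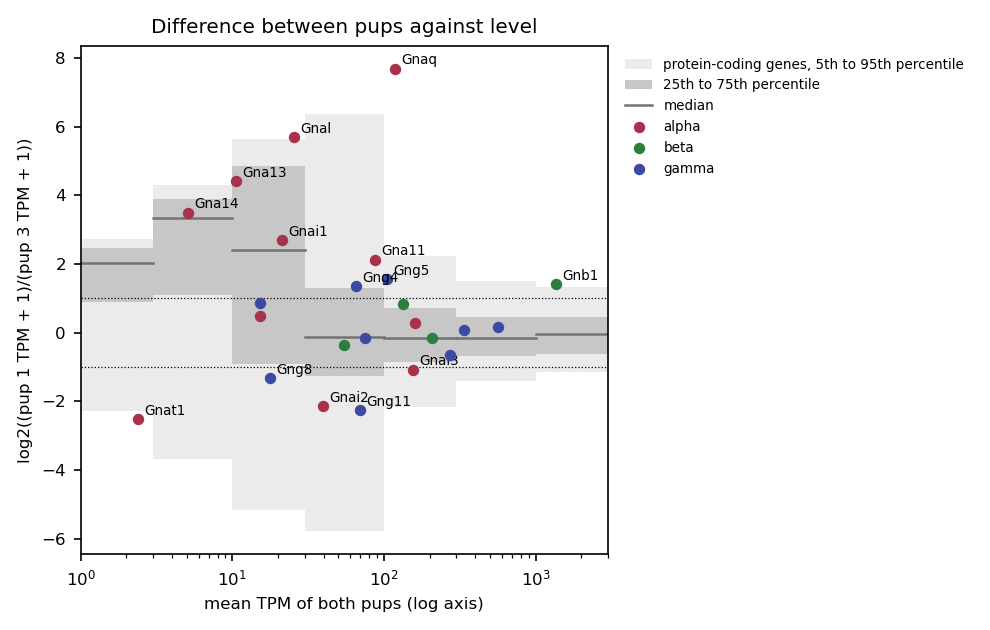
Log2 ratio of pup 1 to pup 3 on TPM + 1 against mean TPM (log axis) for the 24 members at mean TPM of 1 or more, coloured by class, with the percentiles of all protein-coding genes in 7 level ranges as grey bands. Dotted lines mark 2-fold. Gnaq lies at 7.69, beside a 95th percentile of 2.23 for its level range. Gnaq reached that range through pup 1 alone, so its place does not measure how unusual it is. Gnb1 lies at 1.41, beside a 95th percentile of 1.33 in a range of 86 genes.

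Receptors, regulators and effectors of the same pathway were seen unevenly. Of 26 receptors coupled to Gi/o, 6 were found in both pups, 8 only in pup 1, 1 only in pup 3, and 11 in neither. They were led by the GABA-B subunit gene Gabbr1 (77.3 TPM in pup 1 against 20.3 TPM in pup 3), the nociceptin receptor gene Oprl1 (23.8 TPM in pup 1 and 63.6 TPM in pup 3) and the cannabinoid receptor gene Cnr1 (61.1 TPM in pup 1 and 17.0 TPM in pup 3). Of 12 receptors coupled to Gq/11, 2 were found in both, 5 in pup 1 alone and 5 in neither, and their summed level was 190 TPM in pup 1 against 17.5 TPM in pup 3. The summed level of the Gi/o-coupled receptors was 320 TPM in pup 1 against 193 TPM in pup 3. That of the Gs- or Golf-coupled ones was 46.4 TPM in pup 1 against 21.9 TPM in pup 3, so all 3 lists were higher in pup 1. More protein-coding genes of any kind were found in pup 1 (9061) than in pup 3 (6223), so this is not read as a trait of receptors. The Gq/11-coupled receptors were led by the endothelin receptor gene Ednrb (97.9 TPM in pup 1 and 14.9 TPM in pup 3) and the glutamate receptor gene Grm5 (38.3 TPM in pup 1 and 2.17 TPM in pup 3). Of 11 receptors coupled to Gs or Golf, 7 were found in neither pup and 1 was found in both, the orphan receptor gene Gpr12, at 21.1 TPM in pup 1 against 19.2 TPM in pup 3, with Adora2b at 23.0 TPM in pup 1 against 0 TPM in pup 3, and Adora2a at 0.84 TPM in pup 1 against 2.66 TPM in pup 3.

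RGS proteins, which speed up the hydrolysis of GTP by alpha subunits, were found in both pups for 8 of 21 genes and in neither for 7. Rgs10 was at 83.2 TPM in pup 1 against 149 TPM in pup 3, Rgs4 at 109.5 TPM in pup 1 against 42.3 TPM in pup 3, and Rgs19 at 0.07 TPM in pup 1 against 167 TPM in pup 3. Of 12 chaperones and nucleotide regulators, 6 were found in both, led by Ric8a, a chaperone of alpha subunits, at 66.9 TPM in pup 1 against 57.0 TPM in pup 3, by Ccdc88a at 37.9 TPM in pup 1 against 44.4 TPM in pup 3, and by Ric8b, the chaperone of Golf, at 9.97 TPM in pup 1 against 44.9 TPM in pup 3. Of the effectors, 0 of 10 adenylyl cyclase genes were found in both pups and 8 in neither, Adcy1 being at 18.5 TPM in pup 1 against 0.73 TPM in pup 3, Adcy5, the main striatal form, at 7.13 TPM in pup 1 against 0.01 TPM in pup 3, and Adcy10 at 0.92 TPM in pup 1 against 0 TPM in pup 3. Of 4 phospholipase C beta genes, which are effectors of Gq, 2 were found in both: Plcb4 at 22.1 TPM in pup 1 against 7 TPM in pup 3, and Plcb1 at 7.01 TPM in pup 1 against 3.54 TPM in pup 3.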

How the data were processed

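RNA was measured in 2 libraries of newborn mouse forebrain, 1 per pup. The authors deposited expected counts, estimated reads per gene and per transcript, per the file headers, which use RSEM's column names. TPM and a posterior mean TPM were deposited beside them. Credibility bounds of TPM, a signal column with no stated level, and effective lengths (another quantity, in bases) were also deposited. Text deposited with each library names mm10 and annotation M4; the sources used here give no aligner, counter or strand setting.

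Symbols, biotypes and coordinates came from GENCODE M21 (mm10) by gene identifier without version; 42462 of 43346 genes matched. All 123 transcripts of the members were in M21, 110 with the same length. Coding ends were read from M21 for the coding transcript with the highest mean TPM; for 1 alpha gene, Gnal, it is not reported here. Members and lists were chosen with earlier results of these data known. All members are named; of each related list, the 3 highest by mean TPM are named, and Arrb1, the other GIRK genes, the remaining R7 partners and single marker genes were added after their values were seen; some genes of these lists are not reported here.

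A found gene had TPM of 1 or more. Ratios used log2(TPM + 1). Expected counts were rounded to whole numbers for scaling with edgeR 4.0.16 (TMM) and DESeq2 1.42.0. Intervals are exact (Clopper-Pearson, 95%). Ratio, share and call steps were tested on simulated data. Scripts ran in R 4.3.3 and in Python 3.11.15 with scipy 1.17.1, numpy 2.4.6 and pandas 2.3.3.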

Additional observations from a re-analysis of the deposited data

How the results depend on the processing

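Of 41 alternatives other than leaving out a replicate, 38 kept the result within the spread between pups, within the tolerance for the median log2 ratio or, for counts, within 1.5 times. The 3 that moved were all on expected counts, which are not scaled by length: Gnb1 then held 86.9% of the beta class (74.5% of TPM), beta exceeded alpha by 1.82 times (2.66 in TPM), and the mean ratio of gamma to alpha was 1.195 (2.55 in TPM), with gamma below alpha in pup 1 (0.832) and above it in pup 3 (1.56). On protein-coding transcripts alone Gnb1 held 85.65% of the beta class, close to its share on expected counts. That alternative counts as kept only because it lies within the wide spread between pups (SD 11.5%, n = 2). Members found in both pups numbered 17 at TPM of 10 or more and 20 at TPM of 0.1 or more, or with 10 or more reads in each library. Members past 2-fold ranged from 12, with a pseudocount of 10 or at mean TPM of 10 or more, to 15 without a filter and on protein-coding transcripts alone, an alternative chosen after the data were seen. The median log2 ratio was 0.43 on CPM with TMM factors and 0.46 with DESeq2 size factors. Leaving out 1 replicate leaves 1 library, so those 12 values are the single pups and, with n = 2, say nothing about stability. The highest alpha gene was taken by mean TPM; by mean share Gnai3 (28.5%) was above Gnao1 (26.0%). No paired analysis was possible because there is 1 group. With 1 library per pup, differences between animals and between preparations from 13 pg cannot be told apart.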

Other observations

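Other effector groups of the pathway differed in how evenly they were seen. Of 6 genes listed as RhoGEF effectors, 4 were found in both pups (24.8% of all protein-coding genes were) and 2 in pup 1 alone. Their summed level was 111 TPM in pup 1 and 103 TPM in pup 3, with single genes split in direction. Arhgef1 (29.4 TPM in pup 1, 52.9 TPM in pup 3) and Arhgef11 (7.99 and 21.6 TPM) were higher in pup 3. Kalrn was higher in pup 1 (44.7 TPM, against 15.7 TPM in pup 3). Of 4 GIRK channel genes, which open when the beta-gamma dimer binds, Kcnj9 was found in pup 3 alone (0.02 TPM in pup 1 against 14.7 TPM in pup 3), and Kcnj3, Kcnj5 and Kcnj6 had 0 reads in both. Among receptor kinases and arrestins, Grk2, which the beta-gamma dimer recruits, was at 29.1 TPM in pup 1 against 25.8 TPM in pup 3. The arrestin genes were each found in 1 pup, Arrb1 at 12.9 TPM in pup 1 with 0 TPM in pup 3, and Arrb2 at 0 TPM in pup 1 with 33.0 TPM in pup 3.

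Of the 13 members at mean TPM of 20 or more with more than 1 transcript listed, 7 had the same leading transcript in both pups and 6 had another: Gnao1, Gnai2, Gnb2, Gng2, Gng4 and Gng7. For Gng2 the lead was Gng2-204 in pup 1 (203.88 TPM) and the short Gng2-206 in pup 3 (174.59 TPM), although in reads Gng2-204 led in both, with 94.6% in pup 1 and 89.1% in pup 3. For Gng7 it was Gng7-201 in pup 1 (39.08 TPM) and Gng7-205 in pup 3 (45.54 TPM, against 0.62 TPM in pup 1), although in reads Gng7-201 led in both, with 55.4% in pup 1 and 75.8% in pup 3.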
